A study of Mus musculus with 17 samples.

Results

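Reporter-negative innate lymphoid cells (ILCs) of mouse skin were compared between mice with a floxed Gata3 allele and mice without it, across all genes. The members are 5 bulk RNA-seq libraries, picked by their labels out of 17 samples in the series: 3 labelled fm_neg_Gata3flox and 2 labelled fm_neg. All came from skin of mice on the C57BL/6 background, and the sort kept live CD90-positive cells that lacked lineage markers and the γδ T cell receptor. In both groups the mice carried a fate map (fm), which the sample labels name RORgt-fm. A fate map is a lasting mark left in cells that have expressed a driver gene, here RORgt by the labels, and in their progeny. The cells analysed here lacked the mark. The fm_neg_Gata3flox mice additionally carried the Gata3 deletion allele, floxed by the sample labels and ΔGata3 in the sorting protocol, and fm_neg mice did not. Were the deletion to rely on the driver of the fate map, cells without the mark could have kept Gata3, and the labels do not say whether it does. Matched reporter-positive libraries, fm_pos_Gata3flox (n = 3) and fm_pos (n = 2), were fitted in the same model. The labels used here do not give the age of the mice, which Cre deletes Gata3, how many mice each library holds, or whether replicates came from separate animals, so p-values measure the spread between these libraries, which may be technical.

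ILCs are tissue lymphocytes without rearranged antigen receptors. They are grouped by the cytokines they make: ILC1s and NK cells make interferon-γ and cytotoxic granules, ILC2s make IL-5 and IL-13, and ILC3s make IL-17 and IL-22. GATA3 is the transcription factor that ILC2s depend on and that all helper-like ILCs need in lower amounts, and in skin these cells sit close to epidermis, hair follicles and dermal fibroblasts.

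The libraries held 19589689, 21867082 and 16844805 counts in fm_neg_Gata3flox and 21434504 and 14450612 in fm_neg. Several features of the libraries moved with the floxed label. At an equal depth of 14450612 counts, 17948 to 18097 genes had a count in fm_neg_Gata3flox and 15140 and 15248 in fm_neg, and the same gap stood between fm_pos_Gata3flox (17091 to 17833) and fm_pos (13813 and 13925). Of 17456 genes tested, 345 had no count in any fm_neg_Gata3flox library and 2058 had none in either fm_neg library. Replicates correlated at Pearson's r of 0.954 to 0.960 across genes in fm_neg_Gata3flox and at 0.887 in fm_neg, on the log2 scale of CPM, counts scaled to library size. The sort marker Thy1, which encodes CD90, was at 90.9, 94.2 and 96.3 CPM in fm_neg_Gata3flox and at 76.4 and 76.8 CPM in fm_neg. The detection gap and the label cannot be told apart in this design, and a fit with the number of detected genes as a covariate called 0 genes (1286 at an unadjusted p under 0.05).

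Summed transcripts of fibroblasts and of keratinocytes were far lower in fm_neg_Gata3flox than in fm_neg. The summed level of 31 fibroblast and matrix genes was 670, 1471 and 1505 CPM in fm_neg_Gata3flox and 12234 and 10116 CPM in fm_neg, and 30 of the 31 were lower in all fm_neg_Gata3flox libraries than in both fm_neg libraries. The exception was Thy1, on which the cells were sorted. The summed level of 25 keratinocyte genes was 1059.9, 798 and 775 CPM in fm_neg_Gata3flox and 5941 and 2993 CPM in fm_neg. Its members were mixed: 11 of the 25 were lower in all fm_neg_Gata3flox libraries than in both fm_neg libraries, and 4 were higher. Among all genes tested, 17.6% were lower and 21.9% higher in this way. The median log2 fold change of the keratinocyte list was -1.46, and 0.107 without fm_neg replicate 1. The reporter-positive libraries were low for both lists: 338 to 641 CPM in fm_pos_Gata3flox and 384 and 479.8 CPM in fm_pos for the fibroblast list. In a bulk sample, fewer cells of a type and less RNA per cell cannot be told apart.

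**Figure D1:**
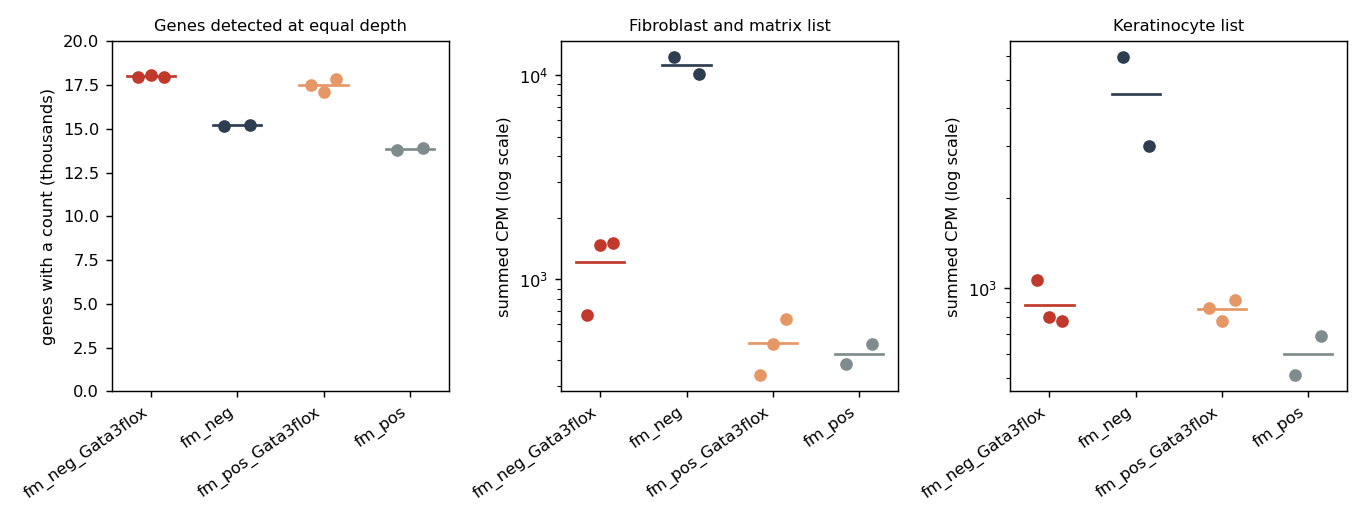
Number of genes with at least 1 count at an equal depth of 14450612 counts (left), and summed CPM of the fibroblast and matrix list (middle) and the keratinocyte list (right), both on log axes. Each point is a library and each line a group mean. fm_neg_Gata3flox sits above fm_neg for detected genes and below it for both lists. fm_neg is the group with the highest sums of both lists.

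Gata3 itself (ENSMUSG00000015619, mm10 chromosome 2, 9857078 to 9890034, minus strand) overlapped between the groups. It was at 264, 430 and 442 CPM in fm_neg_Gata3flox and at 381 and 504 CPM in fm_neg. The log2 fold change was -0.22 ± 0.35 (SE), and the Benjamini-Hochberg adjusted p from the quasi-likelihood test of edgeR was 0.783. The count covers the whole gene and the labels do not say which exons are floxed, so an mRNA that lacks them would still be counted. The label therefore could not be checked through this gene.

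In all, 233 genes passed the test at an adjusted p under 0.05, 1.33% of those tested. Of these, 104 were higher in fm_neg_Gata3flox (0.596%) and 129 were lower (0.739%), and in all 233 the libraries of both groups did not overlap. Among all genes tested, 21.9% were higher in every fm_neg_Gata3flox library than in both fm_neg libraries and 17.6% were lower. The median log2 fold change was 1.28 among the higher genes and -2.18 among the lower genes, against 0.07 over all genes tested. With DESeq2 size factors in place of TMM factors, 53 genes were higher and 131 lower. The number of calls depended on single libraries: it was 17, 5 and 18 without fm_neg_Gata3flox replicate 1, 2 and 3, while without fm_neg replicate 1 it was 102 (49 higher, 53 lower, 57 of them among the 233) and without fm_neg replicate 2 it was 190 (127 higher, 63 lower, 71 of them among the 233). Of the 53 called genes named by rule, Apoe, Krt15, Igfbp3, Ly6g6c and Zfp930 stayed called whichever of the 5 libraries was left out.

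**Figure D2:**
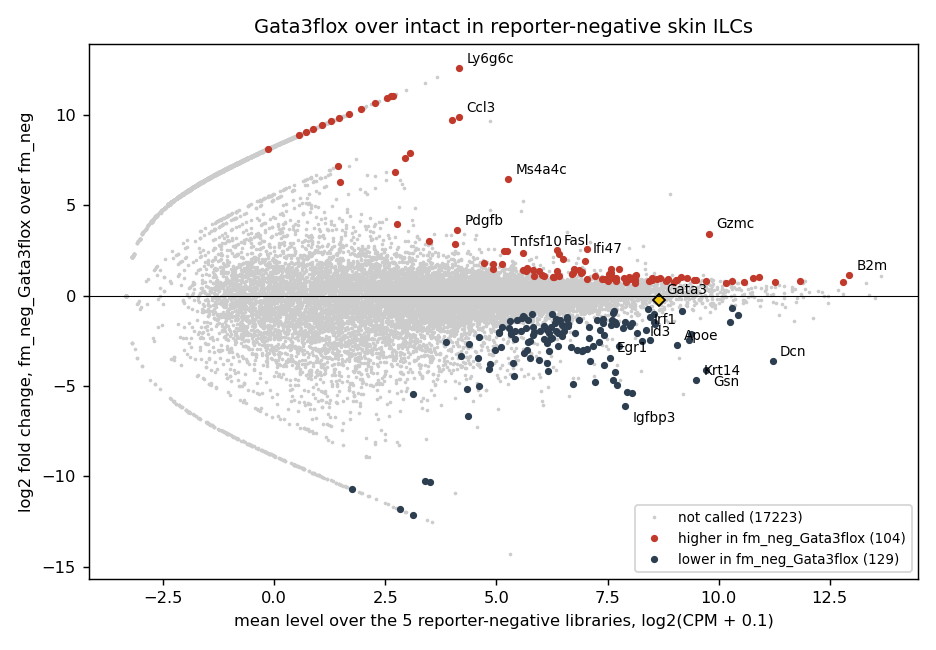
Log2 fold change of fm_neg_Gata3flox over fm_neg (vertical) against the mean level over the 5 reporter-negative libraries as log2(CPM + 0.1) (horizontal) for 17456 genes. Red points are the 104 genes called higher, dark points the 129 called lower, and the diamond is Gata3. The curved outer arms are genes with no count in one group, whose fitted fold change depends on the prior count.

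The list of ILC2 transcription factors gave 1 call. Of 24 ILC2 transcription factors tested, 0 were called higher and 1 lower, and the median log2 fold change was -0.09. The call was Id3, an inhibitor of E-protein transcription factors. Id3 was at 117, 68.2 and 136 CPM in fm_neg_Gata3flox and at 731 and 502 CPM in fm_neg. The groups were well apart, with a log2 fold change of -2.53 ± 0.36 (SE) and an adjusted p of 0.0186 by edgeR. Its difference ran the other way in reporter-positive cells (log2 fold change 1.57, adjusted p 0.0734). The difference between both contrasts passed the test (-4.09, adjusted p 0.00896), where 1.01% of all genes did. It contains the contrast by which Id3 was called, so it is no separate evidence. Id3 was at 54.7, 87.7 and 111 CPM in fm_pos_Gata3flox and 23.7 and 33.5 CPM in fm_pos, so fm_neg stood highest of the 4 groups. With the summed fibroblast and keratinocyte level as a covariate, its log2 fold change was 0.0587 and it was not called. This sum is named the stromal level here, although keratinocytes are epithelium. That covariate splits the reporter-negative libraries as the label does, so label and covariate cannot be told apart. The Id3 call was lost without fm_neg_Gata3flox replicate 1, 2 or 3 or fm_neg replicate 1, with an adjusted p of up to 0.0873 and log2 fold changes of -2.77 to -2.23. Rora, a nuclear receptor that ILC2s need, overlapped between the groups and was at 1447, 1793 and 2044 CPM in fm_neg_Gata3flox and at 2012 and 2137 CPM in fm_neg.

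Of the type 2 cytokines and effectors, 0 of 16 tested members passed in either direction, with a median log2 fold change of 0.25. Il4 was at 73.2, 89.5 and 126 CPM in fm_neg_Gata3flox and at 77.7 and 42.9 CPM in fm_neg. Il5, the eosinophil growth factor, was at 499, 839 and 1358 CPM in fm_neg_Gata3flox and at 698 and 728 CPM in fm_neg. Both genes overlapped between the groups. Il6 was at 9.51, 24.4 and 12.3 CPM in fm_neg_Gata3flox and at 53.9 and 330 CPM in fm_neg, without overlap, and did not pass (adjusted p 0.16 by edgeR).

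Receptors through which ILC2s sense alarmins, cytokines and lipid mediators gave 0 calls among 28 tested, with a median log2 fold change of 0.03. The nearest to the threshold was Il2ra, the α chain of the IL-2 receptor, at 460, 516 and 550 CPM in fm_neg_Gata3flox and 288 and 297 CPM in fm_neg (log2 fold change 0.80 ± 0.17 SE, adjusted p 0.0523 by edgeR). Il18r1, the IL-18 receptor, was at 367, 417 and 398 CPM in fm_neg_Gata3flox and 253 and 246 CPM in fm_neg (adjusted p 0.0562). Neither gene overlapped between the groups. Il1rl1, the IL-33 receptor, overlapped, at 45.3, 102 and 81.6 CPM in fm_neg_Gata3flox and 108 and 86.0 CPM in fm_neg. Without 1 of the 5 libraries, the medians of the ILC2 factor, cytokine and receptor lists lay between -0.30 and 0.49, each with either sign. ILC3 and type 17 genes likewise gave 0 calls among 20 tested, with a median log2 fold change of -0.32 (-0.20 with genes at 0 in a group set to their bound). The sign of that median rested on single libraries: it was 0.16 without fm_neg replicate 2 and -0.04 without fm_neg replicate 1.

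ILC1 and NK cell genes had 4 calls, all higher. Of 28 tested, 4 were called higher and 0 lower, against 0.596% and 0.739% of all genes tested. The median log2 fold change was 1.20. In 18 of the 28 every fm_neg_Gata3flox library was higher than both fm_neg libraries, as in 21.9% of all genes tested. The median was 2.83 without fm_neg replicate 2, and the 4 calls became 2 without fm_neg replicate 1, 1 without fm_neg_Gata3flox replicate 1 or 3 and 0 without replicate 2. With the stromal level as a covariate 5 of the 28 had a positive log2 fold change, against 25 without it, and 0 were called. That covariate splits the reporter-negative libraries as the label does, so label and covariate cannot be told apart. The summed level of the ILC1 and NK list was 9111, 7082 and 4846 CPM in fm_neg_Gata3flox and 2527 and 3798 CPM in fm_neg. Fasl, the ligand that triggers death through FAS, was at 110, 151 and 105 CPM in fm_neg_Gata3flox and at 23.0 and 19.5 CPM in fm_neg. Its log2 fold change was 2.52 ± 0.29 (SE), with an adjusted p of 0.00926 by edgeR, and the libraries of each group lay close together. Gzmc, a granzyme of cytotoxic lymphocytes, was at 2026, 1430 and 698 CPM in fm_neg_Gata3flox and at 76.7 and 179 CPM in fm_neg (log2 fold change 3.44 ± 0.59 SE, adjusted p 0.0335). Tnfsf10, which encodes the death ligand TRAIL, was at 56.8, 62.3 and 41.0 CPM in fm_neg_Gata3flox and 9.60 and 9.87 CPM in fm_neg (adjusted p 0.0467).

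The chemokine Ccl3 had 1764 counts over the fm_neg_Gata3flox libraries and 1 count over both fm_neg libraries. That is a ratio of 1108 after scaling to library size, with an exact 95% interval of 199 to 43810 that covers counting error only. Ncr1, the activating receptor NKp46, was at 75.4, 38.4 and 25.1 CPM in fm_neg_Gata3flox and at 6.08 and 9.18 CPM in fm_neg, and Tyrobp, the adaptor DAP12 of NK receptors, at 454, 428 and 263 CPM in fm_neg_Gata3flox and 33.0 and 91.4 CPM in fm_neg. Neither passed (adjusted p 0.0642 and 0.0584 by edgeR), although neither overlapped. Other cytotoxic genes overlapped: Prf1, the pore protein perforin, was at 51.4, 30.8 and 18.7 CPM in fm_neg_Gata3flox and 49.2 and 117 CPM in fm_neg, and the NK receptor subunit Klrd1 and the transcription factor Eomes overlapped as well. Fasl lost its call without fm_neg_Gata3flox replicate 2 (adjusted p 0.0518). Gzmc lost it without any of the 3 fm_neg_Gata3flox libraries or fm_neg replicate 1 (up to 0.125), and Ccl3 without any 1 of the 5 (up to 0.0918).

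**Figure D3:**
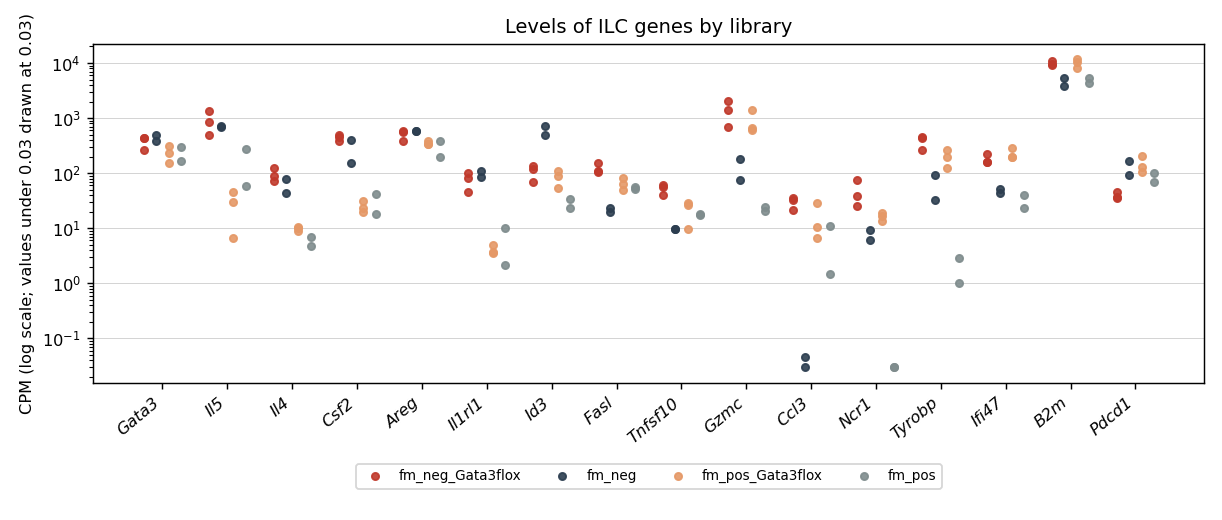
CPM of 16 genes in each of the 10 fate-map libraries, on a log axis; values under 0.03 CPM are drawn at 0.03. Gata3, Il5, Areg and Il1rl1 overlap between fm_neg_Gata3flox and fm_neg, Fasl, Tnfsf10, Gzmc, Ccl3, Ifi47 and B2m stand higher in fm_neg_Gata3flox, and Id3 and Pdcd1 stand lower.

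Of 28 homing and residency genes, 1 was called higher and 0 lower. The skin-homing receptor Ccr8 overlapped, at 1764, 2382 and 2566 CPM in fm_neg_Gata3flox and 2067 and 2170 CPM in fm_neg. Cd69, which holds lymphocytes in tissue, was at 1948, 1698 and 1936 CPM in fm_neg_Gata3flox and 1127 and 1184 CPM in fm_neg and did not pass (adjusted p 0.0523 by edgeR).

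Among 27 costimulatory and inhibitory receptors and ligands, 0 were called higher and 1 lower. Pdcd1, the inhibitory receptor PD-1, was at 45.3, 36.2 and 36.8 CPM in fm_neg_Gata3flox and at 92.0 and 166 CPM in fm_neg (log2 fold change -1.71 ± 0.34 SE, adjusted p 0.0467 by edgeR). Both ligands of PD-1 were called in the opposite direction; they stood outside the lists and were singled out after their values were seen. Cd274, which encodes PD-L1, was at 242, 282 and 251 CPM in fm_neg_Gata3flox and 141 and 123 CPM in fm_neg, with an adjusted p of 0.0485. Pdcd1lg2, which encodes PD-L2, was at 62.4, 74.5 and 64.1 CPM in fm_neg_Gata3flox and 27.3 and 24.5 CPM in fm_neg, with an adjusted p of 0.0447. Tnfsf4, the OX40 ligand, was likewise picked from the calls, at 133, 127 and 114 CPM in fm_neg_Gata3flox and 36.7 and 12.7 CPM in fm_neg (adjusted p 0.0492). Its receptor Tnfrsf4 was at 292, 546 and 472 CPM in fm_neg_Gata3flox and 165 and 151 CPM in fm_neg and did not pass (adjusted p 0.0792). Without fm_neg_Gata3flox replicate 2 the only higher calls were Ly6g6c and Zfp930, so Cd274, Pdcd1lg2 and Tnfsf4 lost theirs. The Pdcd1 call was lost without any of the 3 fm_neg_Gata3flox libraries or fm_neg replicate 2, with an adjusted p of up to 0.164.

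Genes of the interferon response gave 2 calls higher and 1 lower among 33 tested, against 0.596% and 0.739% of all genes tested. Their median log2 fold change was 0.68. The median was 1.41 without fm_neg replicate 2 and 0.35 without fm_neg replicate 1. With the stromal level as a covariate, which splits these libraries as the label does, the median was -2.16. Ifi47, an interferon-induced GTPase, was at 162, 163 and 219 CPM in fm_neg_Gata3flox and at 50.7 and 43.5 CPM in fm_neg (log2 fold change 1.94 ± 0.30 SE, adjusted p 0.0223 by edgeR). Gbp4, a guanylate-binding protein, was at 280, 339 and 253 CPM in fm_neg_Gata3flox and at 136 and 69.1 CPM in fm_neg (adjusted p 0.0485). Irf1, a transcription factor induced by interferon-γ and by NF-κB, stood the other way, at 178, 156 and 144 CPM in fm_neg_Gata3flox and 633 and 535 CPM in fm_neg (log2 fold change -1.87 ± 0.25 SE, adjusted p 0.0137). B2m, the light chain of MHC class I, was the most abundant called gene in CPM, at 10967, 9415 and 9607 CPM in fm_neg_Gata3flox and 3838 and 5330 CPM in fm_neg (log2 fold change 1.12 ± 0.20 SE, adjusted p 0.0364). The classic type I interferon targets Isg15, Mx1, Ifit3 and Oas1a did not pass. Ifi47 lost its call without any 1 of the 5 libraries (adjusted p up to 0.0916), Irf1 without any of the 3 fm_neg_Gata3flox libraries (up to 0.084) and B2m without those or fm_neg replicate 1 (up to 0.133).

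The promoters of 4 of these genes are printed because Ifi47 and B2m stood higher and Irf1 and Socs3, a feedback inhibitor of cytokine receptors, stood lower. Each is the sense strand from 250 bases before to 50 bases after the RefSeq start (GRCm38.p6, the same assembly as mm10), at chr11:49076337-49076636 on the plus strand for Ifi47, chr2:122147437-122147736 on the plus strand for B2m, chr11:53769764-53770063 on the plus strand for Irf1 and chr11:117969317-117969616 on the minus strand for Socs3. Capitals mark a match to 1 of 3 short motifs on either strand: AGATAA, bound by GATA factors, TTCNNNGAA, bound by STAT factors, or GAAANNGAA, a core of the element bound by interferon regulatory factors.
Ifi47: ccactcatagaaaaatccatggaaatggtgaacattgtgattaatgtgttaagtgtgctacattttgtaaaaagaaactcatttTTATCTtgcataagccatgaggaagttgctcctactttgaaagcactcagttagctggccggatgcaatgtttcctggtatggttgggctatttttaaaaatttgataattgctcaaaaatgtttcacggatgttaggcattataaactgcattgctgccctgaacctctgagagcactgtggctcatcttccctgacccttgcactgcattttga
B2m: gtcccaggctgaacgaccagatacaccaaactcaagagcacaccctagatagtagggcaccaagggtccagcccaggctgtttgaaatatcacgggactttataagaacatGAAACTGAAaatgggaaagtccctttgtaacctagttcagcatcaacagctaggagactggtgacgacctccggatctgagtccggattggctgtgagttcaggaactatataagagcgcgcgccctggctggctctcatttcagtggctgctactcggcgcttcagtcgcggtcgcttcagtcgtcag
Irf1: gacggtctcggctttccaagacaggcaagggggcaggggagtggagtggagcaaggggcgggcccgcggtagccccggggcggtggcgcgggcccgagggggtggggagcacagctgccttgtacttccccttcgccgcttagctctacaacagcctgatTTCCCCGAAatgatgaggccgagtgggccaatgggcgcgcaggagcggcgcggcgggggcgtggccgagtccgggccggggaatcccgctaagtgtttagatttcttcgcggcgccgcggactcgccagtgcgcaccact
Socs3: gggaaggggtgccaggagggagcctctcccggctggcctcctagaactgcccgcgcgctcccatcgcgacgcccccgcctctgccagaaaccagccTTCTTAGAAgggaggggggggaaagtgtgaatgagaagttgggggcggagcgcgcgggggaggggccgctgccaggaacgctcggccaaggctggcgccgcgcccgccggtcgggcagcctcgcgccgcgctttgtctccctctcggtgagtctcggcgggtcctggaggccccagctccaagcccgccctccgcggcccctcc
Ifi47 held 1 AGATAA (read as TTATCT on the printed strand), B2m 1 GAAANNGAA, and Irf1 and Socs3 1 TTCNNNGAA each. Over the 11444 tested genes with a promoter in the table, 6.84% held AGATAA, 6.89% TTCNNNGAA and 7.4% GAAANNGAA. AGATAA was in 8 of 72 promoters of higher genes and 3 of 101 of lower genes, TTCNNNGAA in 2 of 72 and 11 of 101, and GAAANNGAA in 8 of 72 and 6 of 101. These are letter matches, counted with no test.

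Immediate early and NF-κB feedback genes, which lymphocytes and stromal cells switch on soon after stimulation, gave more lower than higher calls. Of 39 tested, 1 was called higher and 7 lower, against 0.596% and 0.739% of all genes tested. The median log2 fold change was -0.42. In 24 of the 39 every fm_neg_Gata3flox library was lower than both fm_neg libraries, as in 17.6% of all genes tested. Egr1, a zinc-finger factor of growth-factor signalling, was at 51.9, 27.4 and 35.5 CPM in fm_neg_Gata3flox and at 599 and 223 CPM in fm_neg (log2 fold change -3.42 ± 0.43 SE, adjusted p 0.0122 by edgeR). Ier3, a survival gene of the NF-κB response, was at 125, 104 and 149 CPM in fm_neg_Gata3flox and at 471 and 577 CPM in fm_neg (-2.06 ± 0.26 SE, adjusted p 0.0127). The contrast differed from that in reporter-positive cells by -3.36 for Egr1 (adjusted p 0.0388) and by -2.26 for Ier3 (adjusted p 0.0308). These differences contain the contrast by which both genes were called, so they are no separate evidence. Fosl1 and Jund, subunits of AP-1, the mRNA decay factor Zfp36, the growth regulator Myc and Socs3 were the other 5 calls, with log2 fold changes of -2.59 to -1.08.

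Some members lay lower without overlap and did not pass: Fos was at 2139, 1578 and 1677 CPM in fm_neg_Gata3flox and 4167 and 3453 CPM in fm_neg (adjusted p 0.0524 by edgeR), and Junb at 2843, 2611 and 3124 CPM in fm_neg_Gata3flox and 7128 and 6418 CPM in fm_neg (adjusted p 0.0605). Rel, an NF-κB subunit of lymphocytes, was the call in the other direction, at 573, 819 and 761 CPM in fm_neg_Gata3flox and 369 and 343 CPM in fm_neg (log2 fold change 1.01 ± 0.18 SE, adjusted p 0.038). Nfkbia, the inhibitor that NF-κB induces, was at 5308, 5164 and 5905 CPM in fm_neg_Gata3flox and 4834 and 4556 CPM in fm_neg and did not pass. Of 16 heat shock genes, the co-chaperone Bag3 was the 1 call, lower at 31.0, 31.5 and 20.6 CPM in fm_neg_Gata3flox and 133 and 155 CPM in fm_neg (adjusted p 0.0137). Egr1 lost its call without fm_neg_Gata3flox replicate 2 or 3 (adjusted p up to 0.0767), and Ier3 and Bag3 without any of the 3 (up to 0.0789 and 0.0767). Fibroblast and keratinocyte transcripts moved with this list, as summed above. With the stromal level as a covariate 28 of the 39 had a positive log2 fold change (median 1.23), against 6 without it, and 0 were called. That covariate splits the reporter-negative libraries as the label does, so label and covariate cannot be told apart. The 7 lower calls became 2 and 4 without fm_neg replicate 1 and 2, and 1, 0 and 0 without fm_neg_Gata3flox replicate 1, 2 and 3.

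**Figure D4:**
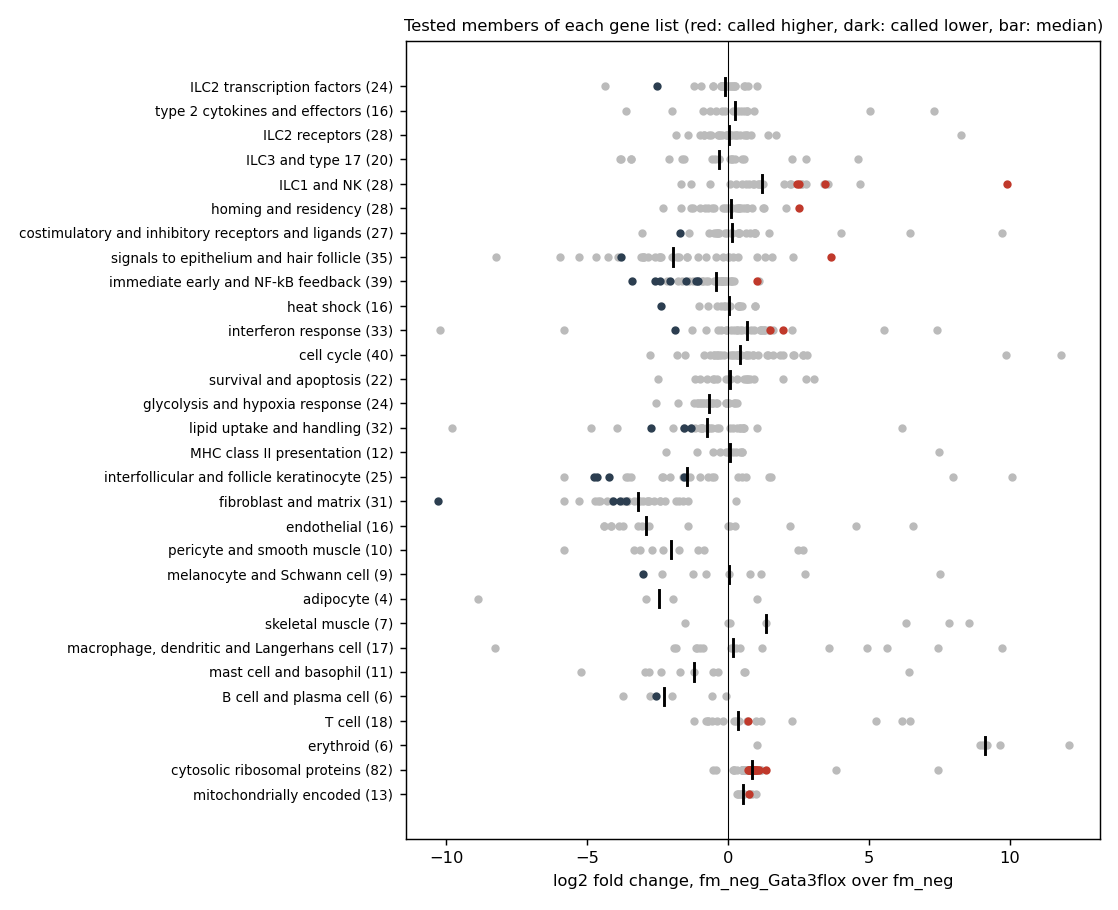
Log2 fold change of fm_neg_Gata3flox over fm_neg for each tested member of each gene list, with the number tested in brackets. Red and dark points are members called higher and lower, grey points were not called, and black bars are list medians. The fibroblast median is -3.21, that of ILC1 and NK genes 1.20, and that of the ILC2 lists lies within 0.25 of 0.

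Signals from ILCs and stroma to epithelium and hair follicle had a median log2 fold change of -1.95 over 35 tested members, with 1 called higher and 1 lower. The median was -1.11 without fm_neg replicate 2. With the stromal level as a covariate, which splits these libraries as the label does, the median was 0.57, with 20 of the 35 positive. Pdgfb, a growth factor for mesenchymal cells, was at 22.4, 33.0 and 26.4 CPM in fm_neg_Gata3flox and at 1.08 and 3.34 CPM in fm_neg (log2 fold change 3.64 ± 0.51 SE, adjusted p 0.0185 by edgeR). In reporter-positive cells it was at 42.1, 52.2 and 43.1 CPM in fm_pos_Gata3flox and 45.2 and 32.5 CPM in fm_pos, so the fm_neg values were the lowest of the 4 groups. Igf1, a growth factor made by dermal fibroblasts and macrophages, was at 2.23, 3.49 and 8.28 CPM in fm_neg_Gata3flox and at 76.9 and 52.4 CPM in fm_neg (adjusted p 0.0447). Areg, the EGF receptor ligand amphiregulin, overlapped, at 388, 556 and 592 CPM in fm_neg_Gata3flox and 595 and 583 CPM in fm_neg. Pdgfb lost its call without any of the 3 fm_neg_Gata3flox libraries (adjusted p up to 0.0767) and Igf1 without any 1 of the 5 (up to 0.164).

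The lower calls included 8 members of the keratinocyte and fibroblast lists (Krt5, Krt14, Krt15, Sfn, Dcn, Gsn, Pi16 and Apod), 6.2% of the 129, where 0.321% of all genes tested were on these lists. Krt14, the keratin of basal epidermis, was at 77.6, 73.2 and 50.3 CPM in fm_neg_Gata3flox and at 2241 and 1161 CPM in fm_neg (log2 fold change -4.67 ± 0.48 SE, adjusted p 0.00574 by edgeR). Dcn, the collagen-binding proteoglycan decorin, was at 291, 554 and 434 CPM in fm_neg_Gata3flox and at 6168 and 4431 CPM in fm_neg (-3.64 ± 0.51 SE, adjusted p 0.0185). Igfbp3, which binds insulin-like growth factors, was at 6.88, 12.9 and 5.76 CPM in fm_neg_Gata3flox and at 542 and 619 CPM in fm_neg (-6.09 ± 0.62 SE, adjusted p 0.00574). In each of these genes both fm_neg libraries lay far above every fm_neg_Gata3flox library.

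Podn, a matrix proteoglycan, had no count in fm_neg_Gata3flox and 850 counts over fm_neg, at least 450.9-fold lower against a floor of 3 counts over the group. Serpina3c had no count in fm_neg_Gata3flox and 678 counts over fm_neg, at least 360-fold lower. Such bounds pool the counts of a group and leave out the spread between libraries. The adjusted p by edgeR was 0.0364 for Podn and 0.0467 for Serpina3c. Both calls were lost without any 1 of the 3 fm_neg_Gata3flox libraries. Apoe, the apolipoprotein of lipid transport and the call with the smallest adjusted p, was at 171, 149 and 172 CPM in fm_neg_Gata3flox and at 944 and 1242 CPM in fm_neg (log2 fold change -2.74 ± 0.20 SE, adjusted p 0.00186 by edgeR). Apoe was 1 of 3 lower calls among 32 lipid genes, with Plin3 and Srebf2, where 0.739% of all genes tested were lower calls. Icam1, the adhesion receptor for LFA-1, was picked from the calls, at 296, 283 and 277 CPM in fm_neg_Gata3flox and 1028 and 1454 CPM in fm_neg (adjusted p 0.0217). Dcn lost its call without any of the 3 fm_neg_Gata3flox libraries (adjusted p up to 0.0916) and Krt14 without replicate 2 (0.0518).

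Some of the higher genes had few or no counts in fm_neg. Of the 104, 14 had no count in either fm_neg library. This share was similar among all genes tested, at 2058 of 17456, so it did not set the higher calls apart. A further 7 of the 104 had 1 to 3 counts over both fm_neg libraries. Ly6g6c, of the Ly6 surface protein family, was at 43.0, 16.2 and 30.2 CPM in fm_neg_Gata3flox, and its 1704 counts against none in fm_neg are at least 357-fold higher against the same floor. It was also counted in fm_pos (7.14 and 16.6 CPM). Zfp930, a zinc-finger gene, had 1521 counts against 1, a ratio of 956 with an exact interval of 171 to 37770. Zfp623 had 618 counts against none, at least 129-fold higher. Fewer genes were detected in fm_neg, as given above, and the part of that gap in these calls was not tested.

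Ribosomal protein genes, the protein parts of the ribosome, gave 18 of the 104 higher calls. The list was chosen after values were seen, so its count is no independent evidence. Of 82 cytosolic ribosomal protein genes tested, 18 were called higher and 0 lower, against 0.596% and 0.739% of all genes tested. The median log2 fold change was 0.84. In 75 of the 82 every fm_neg_Gata3flox library was higher, as in 21.9% of all genes tested. The sum of the ribosomal list was 47151, 48246 and 50004 CPM in fm_neg_Gata3flox and 27791 and 29341 CPM in fm_neg, so the groups did not overlap. DESeq2 called 67, edgeR 60 with no filter on low counts, 54 in the 5 libraries alone, 35 under the stricter filter and 6 with DESeq2 size factors, and 0 were called without any 1 of the 5 libraries. With the stromal level as a covariate, which splits these libraries as the label does, 31 of the 82 had a positive sign. Many ribosomal genes have processed pseudogenes, and the handling of reads shared with them is not given in the sources used here. Of 13 mitochondrially encoded genes, mt-Co1 was the 1 call, at 8645, 8561 and 8188 CPM in fm_neg_Gata3flox and 4431 and 5637 CPM in fm_neg (adjusted p 0.0447).

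Other cell types gave few calls. Of 18 T cell genes tested, Trbc2, a T cell receptor β constant gene that ILCs can transcribe, was called higher, at 322, 322 and 337 CPM in fm_neg_Gata3flox and 182 and 220 CPM in fm_neg (adjusted p 0.0486 by edgeR). Cd3e, of the T cell receptor complex, was at 28.1, 29.9 and 10.4 CPM in fm_neg_Gata3flox and 62.3 and 42.1 CPM in fm_neg, and the summed list was at 4049, 4073 and 3752 CPM in fm_neg_Gata3flox and 3230 and 3881 CPM in fm_neg. Ly6c2, a monocyte marker that activated lymphocytes also carry, was at 1113, 759 and 484 CPM in fm_neg_Gata3flox and 9.64 and 21.9 CPM in fm_neg, and did not pass (adjusted p 0.0605). The summed level of its list, 23 macrophage, dendritic and Langerhans cell genes, was 1421, 1102 and 788 CPM in fm_neg_Gata3flox and 248 and 326 CPM in fm_neg, most of it from Ly6c2 in fm_neg_Gata3flox, while Csf1r, the receptor for macrophage growth factor, stood under 1 CPM in all 5 libraries. None of its 17 tested members was called, and the part of such cells in the ILC1 and NK result was not tested. The endothelial list summed to 24.1, 16.1 and 45.2 CPM in fm_neg_Gata3flox and 113.5 and 415.1 CPM in fm_neg, with 0 calls among 16 tested. Sdc1, shared by plasma cells and epithelium, and Pmp22, of Schwann cells and fibroblasts, were lower calls (adjusted p 0.0317 and 0.0214). Leaving out any 1 of the 3 fm_neg_Gata3flox libraries lost the Trbc2, Sdc1 and Pmp22 calls. Trbc2 also lost its call with DESeq2 size factors and with the 5 libraries alone. Cell cycle (40 tested), survival (22), glycolysis (24) and MHC class II (12) genes gave 0 calls. Of the glycolysis genes, 13 were lower in every fm_neg_Gata3flox library, as were 17.6% of all genes tested. Their median log2 fold change was -0.66 (-0.36 without fm_neg replicate 2).

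The same label was then compared in reporter-positive cells, with no library in common. There fm_pos_Gata3flox over fm_pos called 266 genes, 1.52% of those tested, with 1.11% higher and 0.418% lower. Fitted on its own 5 libraries, that contrast called 0 genes (2818 at an unadjusted p under 0.05), so each reporter-positive call given here rests on the spread shared by the 10 libraries. Of the 104 genes higher in fm_neg_Gata3flox, 17 were also called higher there, 16.3% of these and 8.81% of the 193 higher calls there. Of the 129 lower genes, 4 were called lower there and 13 were called higher. Gzmc was higher in both classes: it was at 1424, 653 and 606 CPM in fm_pos_Gata3flox and at 20.5 and 24.3 CPM in fm_pos (log2 fold change 5.32, adjusted p 0.00809 by edgeR). Ifi47 and B2m were higher in both as well, with log2 fold changes of 2.82 and 1.04 in reporter-positive cells (adjusted p 0.0053 and 0.0376). Fasl was not called there (log2 fold change 0.27, adjusted p 0.616). The difference between the contrasts passed for it (2.25, adjusted p 0.0308), but contains the contrast by which Fasl was called.

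The difference between both contrasts passed in the same direction for 16 of the 104 higher genes and 38 of the 129 lower genes, against 0.183% and 0.825% of all genes tested. That difference contains the contrast by which these genes were called, so nothing is read from these counts. Gas6, a ligand of TAM receptors, was at 4.15, 3.72 and 3.899 CPM in fm_neg_Gata3flox, 51.76 and 78.99 CPM in fm_neg, 6.03, 3.35 and 1.58 CPM in fm_pos_Gata3flox and had no count in fm_pos. Without the libraries of the reporter-positive cells in the fit, 367 genes were called in reporter-negative cells, 172 of them among the 233.

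**Figure D5:**
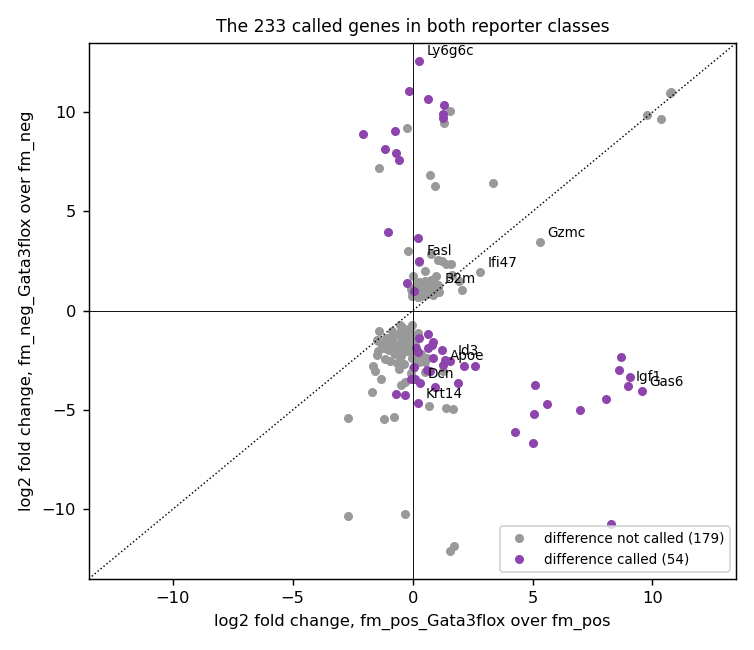
Log2 fold change with the floxed label in reporter-negative cells (vertical, fm_neg_Gata3flox over fm_neg) against that in reporter-positive cells (horizontal, fm_pos_Gata3flox over fm_pos) for the 233 called genes. Purple points are the 54 genes whose difference between the contrasts passed the test, and the dotted line marks equal change. Gzmc, Ifi47 and B2m lie on the same side in both, while Id3, Apoe, Igf1 and Gas6 lie in opposite directions.

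The series also holds ILCs of tamoxifen-treated mice, Gata3KO_tamoxifen (n = 2) and WT_tamoxifen (n = 2): Gata3fl/flCreERT2 mice and C57BL/6 mice, both injected with tamoxifen. That comparison called 0 of 13272 genes by edgeR, 915 at an unadjusted p under 0.05, and DESeq2 called 200. Of the 99 higher genes tested there, 48 had a positive log2 fold change, 48.5% as over all genes tested in both. Of the 127 lower genes, 57 had a negative one, 44.9% against 51.5% of all genes. Fasl was at 27.8 and 27.6 CPM in Gata3KO_tamoxifen and 11.1 and 4.81 CPM in WT_tamoxifen (adjusted p 0.619). Gzmc was at 53.3 and 24.1 CPM in Gata3KO_tamoxifen and 49.3 and 20.9 CPM in WT_tamoxifen, and so overlapped there.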

How the data were processed

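Reads were aligned with HISAT2 2.1.0 and counted per gene with featureCounts (Subread) on mm10, per the submitters' processing notes; the strand setting is not given in the sources used here, so overlapping and antisense genes cannot be told apart. The deposited values used are raw counts per gene, made by the authors, for 10 fate-map and 4 tamoxifen libraries. Groups came from the sample labels.

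Counts were fitted with edgeR 4.0.16 in R 4.3.3. Genes passed filterByExpr (minimum count 10), TMM factors scaled the libraries, and glmQLFit with glmQLFTest tested each contrast in a fit of the 10 fate-map libraries in 4 groups (17456 of 54446 genes tested). Tamoxifen libraries had a fit of their own. Genes with a Benjamini-Hochberg adjusted p under 0.05 were called. CPM values use TMM-scaled library sizes. Folds against 0 counts use a floor of 3 counts over the group, and count intervals are exact 95% intervals for counting error only; PCR duplicates were not marked by molecular identifiers. Scripts were tested on simulated counts.

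Gene names came from the reference table (54409 of 54446 IDs matched). Promoters came from RefSeq (GRCm38.p6) and matched 11444 tested genes by symbol, using the first start listed. Named genes were Gata3, the members of each ILC list with the smallest p (3 a list) and of other lists with a call (2 a list), the called genes with the largest fold changes or CPM, and those with the largest differences between contrasts, above a mean of 10 CPM. Members, lists and tests were chosen with earlier results of these data known; the ribosomal and mitochondrial lists, the covariate fits and a replicate block within genotype were added after values were seen. Single-cell tables were not used here, and some items the rule names are not reported here. Alternatives were DESeq2 1.42.0, its size factors, other filters, the 5 libraries alone, a replicate block, a file-name code and leaving out each library. In DESeq2 adjusted p-values given as NA stayed NA.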

Additional observations from a re-analysis of the deposited data

Results flagged for a closer look

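The difference with the floxed label was itself different between reporter-negative and reporter-positive cells for 176 genes (1.01% of those tested) by edgeR's quasi-likelihood test of the interaction, with 32 higher and 144 lower. Values below are the log2 fold change of fm_neg_Gata3flox over fm_neg minus that of fm_pos_Gata3flox over fm_pos. Genes with no count in a group have fitted values that depend on the prior count. Some values rest on few counts: over both fm_pos libraries Igf1, Angptl2 and C1s1 had 1 count each and Igfbp3 had 7. Ccl3 had 1 count over both fm_neg libraries.

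Among ILC and signalling genes the difference was -4.09 for Id3, 2.25 for Fasl, 8.61 for Ccl3, -2.51 for Pdcd1 and 3.41 for Pdgfb. It was -12.8 for Igf1, -3.36 for Egr1, -2.26 for Ier3, -3.23 for Bag3 and -2.53 for Irf1. Among genes of fibroblasts, keratinocytes, Schwann cells and lipid handling it was -4.01 for Apoe, -3.94 for Krt15, -4.90 for Krt14, -3.96 for Dcn and -3.75 for Pmp22. Matrix and growth-factor genes followed, with -11.7 for Angptl2, -10.3 for Igfbp3, -10.3 for C1s1, -3.49 for Crispld2, -4.79 for Apod, -5.54 for Igfbp7 and -3.54 for Gja1.

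Among genes with few or no counts in fm_neg it was 12.3 for Ly6g6c, 11.2 for Zfp623, 8.46 for Zfp930, 8.61 for Ccdc125, and 8.17 for Zfp182, and for Rab11fip4 it was 4.97. Other differences were 15.6 for Trbv19 and 10.97 for 4930563E22Rik, and -14.1 for Apold1, -14.1 for Ptn, -14.0 for Cldn5, -13.6 for Gas6 and -13.6 for Procr. Apold1, Ptn, Cldn5, Gas6 and Procr had no count in fm_pos. No group held 4 or more libraries, so single outlying libraries were not tested.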

How the results depend on the processing

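The 233 calls of fm_neg_Gata3flox over fm_neg became 1584 with DESeq2 (which kept all 233), 893 with no filter on low counts, 425 under a stricter filter (mean CPM from 5 up), 367 in a fit of the 5 libraries and 77 with a code in the file names as a covariate, of unknown meaning. Leaving out 1 library gave 5 to 190. The difference between the reporter classes, 176 genes, became 1158 with DESeq2, 773 without a filter and 73 with the code, and 54 to 504 without 1 library. The reporter-positive contrast, 266 genes, became 1919 with DESeq2, 974 without a filter, 0 with its 5 libraries alone (2818 at an unadjusted p under 0.05) and 133 with the code, and 66 to 489 without 1 library. The tamoxifen comparison called 0 genes by edgeR, 200 with DESeq2 and 6 without a filter.

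Whether replicate numbers pair the libraries was not settled. Deviations of same-numbered reporter-negative libraries correlated at -0.00704 and -0.0123. The 2 fm_neg libraries deviate from their mean as mirror images, so pairing could not be judged from them. Between the reporter classes, same-numbered libraries of Gata3flox mice correlated at 0.16, 0.0228 and 0.0599. Replicates 1 and 3 of fm_neg_Gata3flox correlated best with their own number, and replicate 2 correlated best with number 3 (0.0466). Both intact pairs have the same value, 0.00279, through that mirroring. The labels give no shared animal or day. A replicate block gave 83 calls in reporter-negative cells (20 higher, 63 lower), 131 in reporter-positive cells and 76 for the difference. A replicate block within genotype, shared by both reporter classes and chosen after seeing the data, gave 26 for the difference (1 higher, 25 lower), 22 of them among the 176.

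With the summed fibroblast and keratinocyte level as a covariate, chosen after seeing the data, 0 genes were called in reporter-negative cells (465 higher and 342 lower at an unadjusted p under 0.05) and 0 for the difference (903 at an unadjusted p under 0.05). With the number of detected genes, also added, 0 were called (1286 at an unadjusted p under 0.05). Under the stromal covariate the log2 fold change turned to 0.0587 for Id3, -2.29 for Gzmc, 1.56 for Plin3, 1.14 for Dcn, -0.13 for Trbc2, -5.13 for Cip2a, 0.30 for Crispld2, -1.61 for B2m, -0.81 for mt-Co1, 1.35 for Zfp36, 0.95 for Lmna and -0.0602 for 4930563E22Rik, none of them called. Dcn is itself among the genes summed in that covariate, so its value there is not a separate result. Under the detection covariate Apod turned to 0.73. Both covariates split the reporter-negative libraries as the label does, so label and covariate cannot be told apart. Of the 53 called named genes, 53 stayed called with DESeq2 and 44 with the 5 libraries alone. The 2 fm_neg libraries limit every value here.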
